A study of Homo sapiens with 8 samples.

Results

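The ephrins EFNA1, EFNB1 and EFNB2, the Eph receptors EPHA2, EPHB2 and EPHB4, the class 3 semaphorins SEMA3C and SEMA3F, the secreted ligand SLIT2 and its receptor ROBO1 were followed in endothelial hybrid cells that had lost 1 of 2 enhancers. These 10 genes were taken by symbol from the 27946 genes of the expression table, each by the RefSeq transcript with the highest mean level, and all 10 were present. A level of at least 0.5 FPKM (fragments per kilobase of transcript, scaled to the library's reads) in at least 2 of the 8 libraries was reached by 13790 genes and by 8 of these 10. EFNB2 and ROBO1 were under it.

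RNA sequencing was carried out on EA.hy926, a human line made by fusing umbilical vein endothelial cells with a lung carcinoma line and grown in medium with serum. In the ΔE2 clones Cas9 protein and paired guide RNAs had removed E2, an enhancer of the super-enhancer SE12313 that was active in reporter assays, and in the ΔSE12313-b clones they had removed SE12313-b, a second stretch of SE12313 that was inactive in vitro. Each deletion was represented by 3 lines, each grown from a single cell, and the EA.hy926 control by 2 libraries, and all were ribosome-depleted total RNA. Clone numbers used here are the replicate numbers of the labels, which need not be the study's own clone numbers. The labels do not say whether the 2 control libraries came from separate cultures or how the control cells had been handled, and the control is not described as a single-cell clone, so deletion and clonal growth cannot be told apart. The deleted stretches are non-coding, so no gene's level in the table checks the deletions themselves. The study checked them by the size of PCR products and by Sanger sequencing.

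Ephrins are cell surface ligands, the A class held by a lipid anchor and the B class spanning the membrane, and they bind Eph receptor tyrosine kinases on neighbouring cells. Signals run into both cells. In vessels, EFNB2 marks arterial and EPHB4 venous endothelium, while EFNA1 and EPHA2 act in angiogenesis and in many carcinomas. Class 3 semaphorins are secreted and signal through neuropilins and plexins, and SLIT2 signals through ROBO receptors. These systems guide axons and also steer endothelial sprouts.

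The sequences around the start sites of SEMA3F, EPHB4 and EFNB2 are shown because SEMA3F was the gene that fell, EPHB4 rose in both deletions, and EFNB2, its arterial partner, had no read. Each runs 5′ to 3′ on the gene's strand in GRCh37 from 250 bases before the start of the transcript used to 50 bases after it, and capitals mark the GC box GGGCGG or its complement CCGCCC, the binding motif of Sp1-type factors. The SEMA3F window was chr3:50192228-50192527 on the plus strand, the EPHB4 window chr7:100425094-100425393 on the minus strand and the EFNB2 window chr13:107187339-107187638 on the minus strand.
SEMA3F: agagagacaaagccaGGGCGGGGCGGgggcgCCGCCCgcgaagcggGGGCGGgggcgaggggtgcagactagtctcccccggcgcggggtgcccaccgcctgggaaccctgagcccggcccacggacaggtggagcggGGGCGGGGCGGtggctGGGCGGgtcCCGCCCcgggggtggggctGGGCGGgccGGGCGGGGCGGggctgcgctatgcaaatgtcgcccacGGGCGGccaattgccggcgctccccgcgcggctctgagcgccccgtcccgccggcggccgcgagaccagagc
EPHB4: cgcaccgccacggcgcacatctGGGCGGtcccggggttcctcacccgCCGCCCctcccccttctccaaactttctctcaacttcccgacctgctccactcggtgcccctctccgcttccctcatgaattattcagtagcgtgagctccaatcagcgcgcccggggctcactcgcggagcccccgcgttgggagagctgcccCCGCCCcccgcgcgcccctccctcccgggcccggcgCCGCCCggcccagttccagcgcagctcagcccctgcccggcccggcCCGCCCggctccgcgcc
EFNB2: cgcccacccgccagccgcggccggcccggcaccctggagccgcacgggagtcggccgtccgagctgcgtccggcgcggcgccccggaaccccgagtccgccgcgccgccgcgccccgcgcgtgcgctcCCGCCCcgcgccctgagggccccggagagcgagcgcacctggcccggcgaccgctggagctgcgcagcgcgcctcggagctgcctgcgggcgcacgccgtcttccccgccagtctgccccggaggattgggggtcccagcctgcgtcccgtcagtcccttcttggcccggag

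The SEMA3F window held 12 GC boxes, counting hits that share a base, and 0.16% of the 27862 windows of the same length around the starts of the genes in the table held as many. EPHB4 held 5, as did EFNA1 and SLIT2, and 5.9% of windows held at least 5. EFNB2, EFNB1, EPHA2 and EPHB2 held 1 each. The GC content was 80.7% for SEMA3F, 74.3% for EPHB4 and 81.0% for EFNB2, against a median of 58.3% over all windows. The GC box itself was in 46.2% of windows. Of the other motifs searched on both strands, AP-1 (TGANTCA, present in 7.1% of windows), the E-box (CACGTG, present in 7.5%), the hypoxia core (ACGTG, present in 21.6%, which the E-box contains) and ETS (CCGGAAG, present in 10.2%) had no match in the 10 genes' windows. The GATA-type motif spelled AGATAA, present in 9.7% of windows, had 1, in ROBO1. These are matches of letters in this window only, and SEMA3F has 3 annotated starts and SEMA3C and ROBO1 have 2 each.

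The libraries held 12067553 to 19101152 reads, of which 7802376 to 13374180 fell on the genes. Endothelial markers were present: 11 of 14 reached 0.5 FPKM on average in the controls, while CLDN5, EMCN and the VEGF receptor KDR did not, and CLDN5 was at 0 in every library. The summed endothelial markers were 508.55 to 513.75 FPKM in the controls, 760.94 to 1005.3 in ΔE2 and 728.99 to 984.41 in ΔSE12313-b. The markers did not move together: ICAM2 was at 34.5 and 37.8 FPKM in the controls and 210 to 263 in the clones, while VWF (1.83 and 2.02 against 0.346 to 0.831) and TIE1 (55.3 and 56.8 against 39.1 to 53.5) were lower in every clone and CDH5 in all but ΔE2 clone 2. Of 8 epithelial markers, 5 reached 0.5 FPKM in each deletion, with CDH1 at 0. In the controls 6 reached it in at least 1 library, EPCAM through control 1 alone (0.554 FPKM, against 0.243 in control 2). The 8 summed to 368.44 to 369.9 FPKM in the controls, 1088.06 to 1214.14 in ΔE2 and 816.8 to 1073.43 in ΔSE12313-b. That rise was in the keratins KRT7, KRT8 and KRT18, while CLDN1 (5.60 and 5.84 FPKM in the controls, no lower than 1.39 in the clones) and EPCAM were lower in every clone. The 6 mesenchyme markers summed to 5.04 to 6.44 FPKM in the controls, 0.45 to 1.81 in ΔE2 and 0.68 to 1.54 in ΔSE12313-b, with ACTA2 the only one at the minimum, and blood markers were at or near 0 (at most 0.12 FPKM summed). The part of these shifts in the values that follow was not tested, and fewer cells of a type cannot be told apart from less RNA per cell. The median change of all tested genes was 0.14 on the log2(FPKM + 0.1) scale in ΔE2 and 0.27 in ΔSE12313-b, so log2 changes of that size are those of a typical gene.

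**Figure D1:**
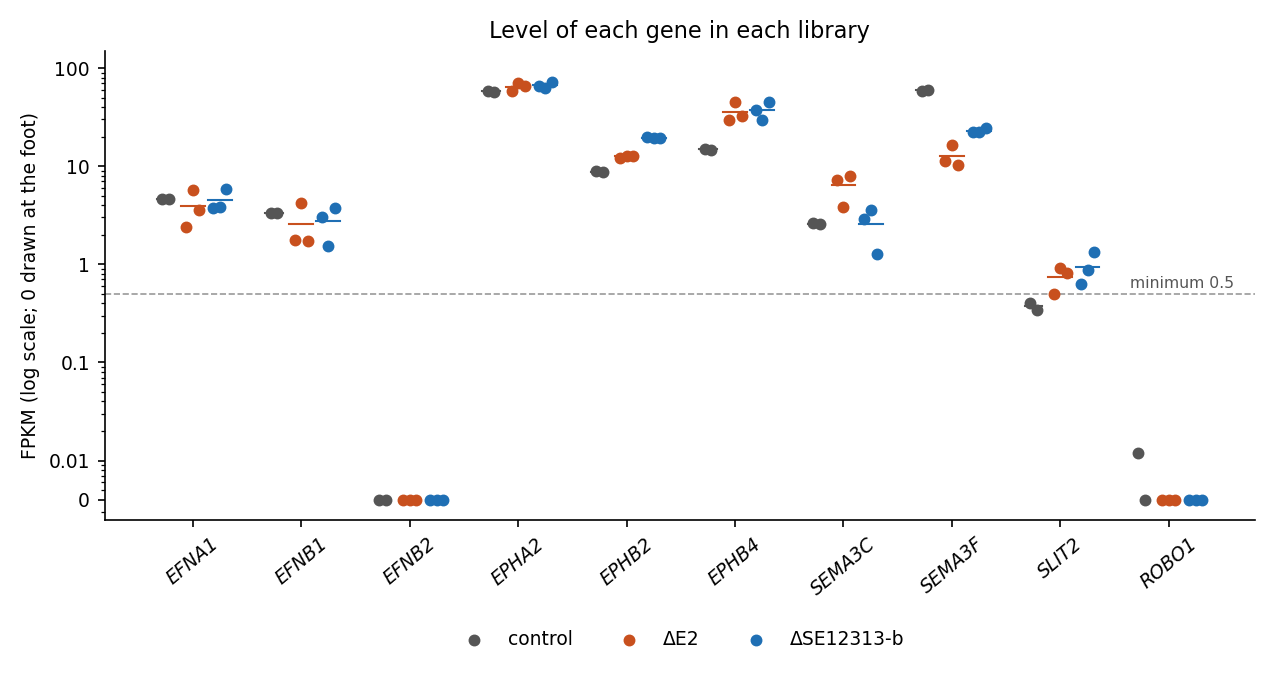
FPKM of the 10 genes in each library, on a log axis with 0 drawn at the foot. Points are libraries (2 control, 3 ΔE2 and 3 ΔSE12313-b clones), bars are group means, and the dashed line is the minimum of 0.5 FPKM. SEMA3F sat at 58.5 and 60.3 FPKM in the controls and between 10.3 and 24.2 in the clones, while EPHB4 sat at 14.5 and 15.1 in the controls and between 29.5 and 45.0 in the clones.

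Changes were tested with limma on log2(FPKM + 0.1) over all 13790 genes, with Benjamini-Hochberg adjustment, and a gene was called when its adjusted p was under 0.05 and its change at least 2-fold on that scale. In ΔE2, 1 of the 8 tested genes was called higher (EPHB4), where 11.2% of all tested genes were, and 1 was called lower (SEMA3F), where 8.36% were. In ΔSE12313-b, 3 were called higher (EPHB2, EPHB4 and SLIT2) against 14.7% of all tested genes, and 1 lower (SEMA3F) against 7.83%. SLIT2 reached the minimum of 0.5 FPKM only through the clones, so that minimum in part sets its place above the controls. At any fold, 3 of 8 passed the adjusted p in ΔE2 against 54.1% of all genes, and 4 of 8 in ΔSE12313-b against 59.4%. The clones lay wholly on one side of both controls for 5 of 8 genes in ΔE2 and for 5 of 8 in ΔSE12313-b, against 73.5% and 75.3% of all tested genes. SLIT2, with that limit, is in both counts. Both comparisons use the same 2 control libraries. With each library centred on the median deviation of its genes from their means over all libraries, the calls over all genes were 1170 higher and 1464 lower in ΔE2 rather than 1544 and 1153, and 1201 and 1570 in ΔSE12313-b rather than 2032 and 1080. Of the 8 genes, centring left EPHB4 called higher and SEMA3F called lower in each deletion, with no other call.

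Among the receptors, EPHB4, the venous receptor for EFNB2, rose in both deletions. It was at 15.1 and 14.5 FPKM in the controls, at 29.7, 44.8 and 32.6 in ΔE2 and at 37.6, 29.5 and 45.0 in ΔSE12313-b. Every clone lay above both controls, and the clones of the 2 deletions overlapped. The log2 change was 1.24 ± 0.21 (SE) in ΔE2 (limma, adjusted p = 0.00162) and 1.31 ± 0.21 in ΔSE12313-b (adjusted p = 0.00102), or 2.42 and 2.53 times the control by the ratio of mean FPKM. The direct difference between the deletions was -0.07, with a 95% interval of -0.50 to 0.37 (limma, adjusted p = 0.823). With quantile-normalised libraries the changes were 0.97 and 0.90 and under 2-fold. The gene lies at chr7:100400187-100425143 on the minus strand (hg19), and its exons share 69 bases, 1.1% of their length, with SLC12A9 on the other strand, which was at 4.30 to 7.51 FPKM.

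EPHB2, a receptor for B class ephrins, showed a graded rise. It was at 8.94 and 8.68 FPKM in the controls, at 12.2, 12.7 and 12.8 in ΔE2 and at 19.7, 19.5 and 19.5 in ΔSE12313-b. The 3 groups did not overlap, and clones of 1 deletion differed by at most 1.05 times. The log2 change was 0.51 ± 0.07 (SE) in ΔE2 (limma, adjusted p = 0.000491), which was under 2-fold, and 1.14 ± 0.07 in ΔSE12313-b, which was called (adjusted p = 6.39e-06). The deletions differed by -0.64 on the log2 scale (95% interval -0.78 to -0.50, limma adjusted p = 0.000719), with ΔE2 lower. With each library centred the ΔSE12313-b change was 0.85, and with quantile normalisation 0.79, both under 2-fold. EPHB2 lies at chr1:23037331-23247993 on the plus strand.

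EPHA2, the receptor of EFNA1, was the most abundant Eph receptor and did not pass the test in either deletion. It was at 58.7 and 56.9 FPKM in the controls, at 58.6, 69.9 and 65.8 in ΔE2 and at 65.9, 62.2 and 72.1 in ΔSE12313-b. The ΔE2 clones overlapped the controls, and the ΔSE12313-b clones lay above them. The log2 difference was 0.16 (95% interval -0.06 to 0.38, limma adjusted p = 0.193) in ΔE2 and 0.20 (-0.02 to 0.43, adjusted p = 0.0999) in ΔSE12313-b. Its sign depends on the scaling: in ΔSE12313-b it was -0.08 with each library centred and -0.28 with quantile normalisation, and in ΔE2 -0.16 with quantile normalisation. EPHA2 lies at chr1:16450832-16482604 on the minus strand.

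Summed over the 14 Eph receptor genes in the table, receptor transcripts were at 86.4 and 83.5 FPKM in the controls, at 107, 136 and 119 in ΔE2 and at 129, 117 and 142 in ΔSE12313-b. EPHA2 made up 67.9% and 68.1% of that sum in the controls and 50.8% to 55.2% in the clones. The share of EPHB4 was 17.5% and 17.3% in the controls and 25.2% to 33.0% in the clones. EPHB2 held 10.4% in each control, 11.3%, 9.39% and 10.7% in ΔE2 and 15.3%, 16.6% and 13.8% in ΔSE12313-b. The 6 clones thus had 1.56 to 2.11 EPHA2 per EPHB4 by FPKM, where the controls had 3.88 and 3.93. These sums and ratios are descriptions with no test.

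The ephrin ligands were lower in level and varied widely between clones. EFNA1 was at 4.65 and 4.68 FPKM in the controls, at 2.38, 5.77 and 3.53 in ΔE2 and at 3.75, 3.85 and 5.81 in ΔSE12313-b. Clones lay on both sides of the controls in each deletion. The log2 difference was -0.34 in ΔE2 (95% interval -1.13 to 0.44, limma adjusted p = 0.423) and -0.09 in ΔSE12313-b (-0.87 to 0.70, adjusted p = 0.836). EFNA1 lies at chr1:155100349-155107386 on the plus strand.

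EFNB1, a B class ligand of EPHB2, was at 3.34 and 3.37 FPKM in the controls, at 1.75, 4.17 and 1.75 in ΔE2 and at 3.01, 1.52 and 3.77 in ΔSE12313-b. Here too the clones lay on both sides. The log2 difference was -0.50 in ΔE2 (95% interval -1.54 to 0.54, limma adjusted p = 0.378) and -0.36 in ΔSE12313-b (-1.40 to 0.68, adjusted p = 0.518), so a 2-fold fall lies within both intervals and a 2-fold rise outside them. EFNB1 lies at chrX:68048840-68062006 on the plus strand.

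EFNB2, the arterial ligand, was listed at 0 FPKM with 0 reads in each of the 8 libraries. At the depth of these libraries a limit of 3 reads per library corresponds to 0.0553 FPKM in the controls, 0.0421 in ΔE2 and 0.0440 in ΔSE12313-b on average. That limit covers counting error only. The gene lies at chr13:107142079-107187388 on the minus strand, and a lncRNA on the other strand shares 1822 bases, 36.4%, of its exons. The ratio of EPHB4 to EFNB1, the B ephrin that reached the minimum, was 4.52 and 4.30 in the controls, 17.0, 10.8 and 18.7 in ΔE2 and 12.5, 19.4 and 11.95 in ΔSE12313-b by FPKM. All clones lay above both controls in this ratio, which is a description with no test.

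**Figure D2:**
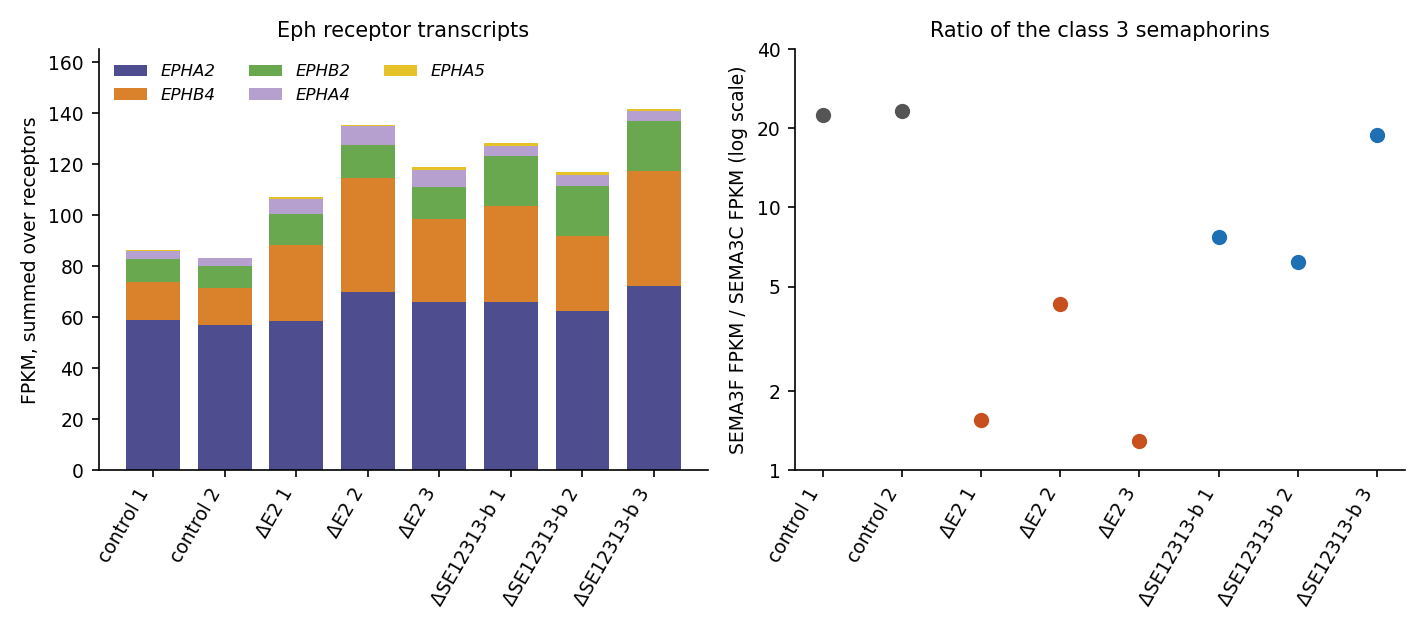
Left, FPKM summed over the Eph receptors in each library, stacked by the 5 receptors that reached the minimum. Right, SEMA3F FPKM divided by SEMA3C FPKM in each library, on a log axis. EPHA2 stayed the largest receptor while EPHB4 made up 17.5% and 17.3% of the sum in the controls and 25.2% to 33.0% in the clones, and the semaphorin ratio was 22.5 and 23.2 in the controls and 1.29 to 18.9 in the clones.

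SEMA3F, a secreted semaphorin that binds NRP2 and is known to repel endothelial cells, fell most of the 8 genes in both deletions. It was at 58.5 and 60.3 FPKM in the controls, at 11.2, 16.6 and 10.3 in ΔE2 and at 22.3, 22.3 and 24.2 in ΔSE12313-b. The 3 groups did not overlap. The control libraries held 2405 and 2358 reads of it and the clones 456 to 1248. The log2 change was -2.25 ± 0.18 (SE) in ΔE2 (limma, adjusted p = 4e-05) and -1.37 ± 0.18 in ΔSE12313-b (adjusted p = 0.000386), the control mean being 4.68 and 2.59 times the clones' mean FPKM. The direct difference was -0.88 (95% interval -1.25 to -0.50, limma adjusted p = 0.00694), lower in ΔE2 and under 2-fold. Without ΔE2 clone 2, the ΔE2 clone with the highest SEMA3F, this difference was -1.09 and was called. The fall was alike over its 3 RefSeq transcripts, from -2.26 to -2.25 in ΔE2 and at -1.37 in ΔSE12313-b, although reads shared by these transcripts count for each. SEMA3F lies at chr3:50192478-50226508 on the plus strand, and SEMA3F-AS1, which shares 110 bases of its exons from the other strand, was at no more than 0.181 FPKM.

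SEMA3C, a semaphorin that signals through NRP1 and NRP2 with plexins, separated the 2 deletions. It was at 2.61 and 2.60 FPKM in the controls, at 7.19, 3.85 and 8.03 in ΔE2 and at 2.88, 3.61 and 1.29 in ΔSE12313-b. All 3 ΔE2 clones lay above both controls and above all ΔSE12313-b clones, which lay on both sides of the controls. The log2 difference was 1.19 ± 0.44 (SE) in ΔE2, which missed the threshold (95% interval 0.17 to 2.21, limma adjusted p = 0.0505), and -0.12 in ΔSE12313-b (-1.14 to 0.90, adjusted p = 0.826). Between the deletions it was 1.31 ± 0.39 (95% interval 0.40 to 2.22, limma adjusted p = 0.0433), which was called. Both outcomes turned on single libraries. The direct one was lost without either control, ΔE2 clone 1 or 3, or ΔSE12313-b clone 1 or 3 (limma, adjusted p 0.0641 to 0.134), and the ΔE2 difference was called without ΔE2 clone 2 (1.51, adjusted p = 0.0203) or without ΔSE12313-b clone 2 or 3 (adjusted p = 0.0412 and 0.0131). SEMA3C lies at chr7:80371852-80551695 on the minus strand.

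The ratio of SEMA3F to SEMA3C by FPKM was 22.5 and 23.2 in the controls, 1.55, 4.31 and 1.29 in ΔE2 and 7.73, 6.18 and 18.9 in ΔSE12313-b. In the controls SEMA3F was thus the far more abundant of the pair, and in the ΔE2 clones the 2 genes came within 5-fold of each other.

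SLIT2, a secreted ligand of the ROBO receptors, was low throughout. It was at 0.403 and 0.341 FPKM in the controls, at 0.503, 0.918 and 0.806 in ΔE2 and at 0.636, 0.884 and 1.32 in ΔSE12313-b, from 33 to 168 reads per library. Every clone lay above both controls. The log2 difference was 0.80 in ΔE2 (95% interval -0.01 to 1.62, limma adjusted p = 0.0885) and 1.10 ± 0.35 (SE) in ΔSE12313-b (0.28 to 1.92, adjusted p = 0.0277), and only the second was called. It reached the minimum of 0.5 FPKM through the clones alone, so its place above the controls is in part set by that minimum. The ΔSE12313-b call was lost without either control library or without clone 2 or 3 (adjusted p 0.0551 to 0.133) and with each library centred (0.81, adjusted p = 0.0817), while the ΔE2 difference was called without ΔE2 clone 1 (1.03, adjusted p = 0.0493) and with quantile normalisation (1.09, adjusted p = 0.0261). The direct difference was -0.30 (95% interval -1.03 to 0.44, limma adjusted p = 0.535). SLIT2 lies at chr4:20253528-20622184 on the plus strand.

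ROBO1, its receptor, was at 0.012 FPKM (1 read) in control 1 and at 0 in the other 7 libraries, under the limit of 3 reads in all of them. It lies at chr3:78646388-79817059 on the minus strand.

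Compared directly, 1 of the 8 genes was called higher in ΔE2 than in ΔSE12313-b (SEMA3C), against 1.60% of all tested genes, and 0 were called lower by limma, against 2.63%. At any fold, 3 of 8 passed the adjusted p (SEMA3C, EPHB2 and SEMA3F), against 26.0% of all genes, and the clones of the 2 deletions did not overlap for the same 3, against 40.8%. With each library centred the calls over all genes were 287 higher and 244 lower rather than 221 and 362, and SEMA3C was the only one of the 8 called. For the other 5 genes the difference was between -0.30 and -0.05, with adjusted p from 0.535 to 0.828, and the 95% intervals for EFNA1 and EFNB1 (-0.96 to 0.45 and -1.08 to 0.79) leave room for levels near 2-fold lower in ΔE2.

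The order of levels differed between the groups. In the controls SEMA3F and EPHA2 were at the top and overlapped, followed by EPHB4, EPHB2, EFNA1, EFNB1, SEMA3C and SLIT2, each apart from the next. In ΔE2 the order was EPHA2, EPHB4, SEMA3F and EPHB2, with SEMA3F (12.7 ± 3.39 FPKM, SD, n = 3) overlapping EPHB2 (12.6 ± 0.355), then SEMA3C, EFNA1, EFNB1 and SLIT2, of which SEMA3C overlapped EFNA1 and EFNA1 overlapped EFNB1. In ΔSE12313-b, EPHA2, EPHB4, SEMA3F and EPHB2 were each apart, and below them neighbours overlapped down to SLIT2.

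Clones of 1 deletion differed from each other far more for some of these genes than for others. The highest EFNA1 clone was 2.42 times the lowest in ΔE2, and for EFNB1 it was 2.39 times in ΔE2 and 2.47 times in ΔSE12313-b. For SEMA3C it was 2.08 and 2.81 times. The SD of EFNB1 between clones on the log2 scale, 0.70 and 0.65, stood at the 94 and 92.9 percentile of all tested genes, whose medians were 0.15 in each deletion. EPHB2 stood at the 6.5 and 1.2 percentile. The control libraries differed by less, with a median SD of 0.067 over all genes.

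This clone-to-clone variation followed a shared pattern, which was chosen after its values were seen. EFNA1, EFNB1, EPHA2, EPHB4, SEMA3F and SLIT2, 6 of the 8 tested genes, were highest in ΔE2 clone 2 among the ΔE2 clones and in ΔSE12313-b clone 3 among the ΔSE12313-b clones. Of all tested genes, 2759 (20%) did so. SEMA3C was lowest in those same clones, as were 2993 genes (21.7%). Of 12 tested endothelial markers, 10 were highest in those clones, among them CDH5, VWF and TEK, and their part in the pattern was not tested. EPHB2 was within 0.05 of the mean of its deletion in each clone on the log2 scale.

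The wider pathways were read from 89 other genes of ephrin, semaphorin, Slit and netrin signalling, of which 53 were tested. In ΔE2, 5 were called higher and 6 lower, where 11.2% and 8.36% of all tested genes were, and the median log2 change was -0.04, against 0.14 for all tested genes. In ΔSE12313-b, 8 were called higher and 9 lower, where 14.7% and 7.83% of all tested genes were, with a median of 0.15 against 0.27. Calls in either direction made up 20.8% of the tested list in ΔE2 against 19.6% of all tested genes, and 32.1% in ΔSE12313-b against 22.6%. With each library centred these became 2 higher and 8 lower, and 3 higher and 11 lower. Centring also moved the calls over all 13790 tested genes, to 1170 higher and 1464 lower in ΔE2 and 1201 and 1570 in ΔSE12313-b. At any fold, 13 rose and 15 fell past the adjusted p in ΔE2, and 19 and 14 in ΔSE12313-b, where 54.1% and 59.4% of all tested genes passed it in either direction. By direction, 4783 of the 13790 tested genes rose and 2672 fell past it in ΔE2, and 5927 and 2261 in ΔSE12313-b.

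Of the other 11 Eph receptors, 2 were tested. EPHA4, a receptor of both ephrin classes, was at 3.05 and 2.99 FPKM in the controls, at 5.69, 7.34 and 6.63 in ΔE2 and at 3.76, 4.37 and 4.18 in ΔSE12313-b. The log2 change was 1.09 in ΔE2, which was called (limma, adjusted p = 0.000271), and 0.43 in ΔSE12313-b (adjusted p = 0.0203). EPHA5, an A class receptor, was at 0.473 and 0.321 FPKM in the controls and at 0.747 to 1.23 in the clones, and was called in both deletions at 1.06 and 1.25, although it reached the minimum through the clones alone. The B ephrin EFNB3 and the A ephrin EFNA2 were under the minimum, and EFNA3, EFNA4 and EFNA5 were tested with no call, the differences lying between -0.37 and 0.26.

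Of the 18 other semaphorins, 10 were tested, with 2 lower in ΔE2 and 2 higher and 2 lower in ΔSE12313-b. Calls made up 20% and 40% of those tested, against 19.6% and 22.6% of all tested genes. SEMA3A, a ligand of NRP1 that repels axons and endothelial cells, was at 34.9 and 36.3 FPKM in the controls, at 14.1, 11.4 and 13.1 in ΔE2 and at 15.1, 15.5 and 13.0 in ΔSE12313-b. It fell by 1.47 and 1.29 on the log2 scale (limma, adjusted p = 3.4e-05 and 5e-05). SEMA3B, another class 3 semaphorin, was at 1.58 FPKM in each control, at 0.131 to 0.211 in ΔE2 and at 0.468 to 0.581 in ΔSE12313-b, and fell by 2.65 and 1.42. SEMA6B, a membrane-bound semaphorin, rose by 1.36 in ΔSE12313-b, from 18.3 FPKM in each control to 45.9, 37.2 and 61.7, and SEMA3D, outside the rule for names, rose by 1.13 there.

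All 11 semaphorin receptors were tested, with 1 higher and 2 lower in ΔE2 and 2 higher and 2 lower in ΔSE12313-b. Calls made up 27.3% and 36.4% of them, against 19.6% and 22.6% of all tested genes. PLXNA3, outside the rule for names, was called lower in both, at -1.27 and -1.32, although it reached the minimum through the controls alone, so its place below them is in part set by that minimum. PLXNB1, also outside the rule for names, was called lower in ΔE2, at -1.25. PLXNA4, a partner of neuropilins for class 3 semaphorins, was at 0.830 and 0.748 FPKM in the controls, at 4.39, 5.33 and 5.34 in ΔE2 and at 6.40, 4.81 and 4.45 in ΔSE12313-b, and rose by 2.52 and 2.57 on the log2 scale (limma, adjusted p = 1.83e-05 and 1.37e-05). PLXNC1, the receptor of SEMA7A, fell by 1.88 in ΔSE12313-b. PLXNB3 rose by 1.07 there and was the receptor that differed most between the deletions, at 0.369 to 0.551 FPKM in ΔE2 and 1.64 to 2.30 in ΔSE12313-b, a direct difference of -1.83 (limma, adjusted p = 0.00135). The neuropilins, named after their values were seen because they bind SEMA3F and SEMA3C, were not called in either deletion against control. NRP1 was at 33.8 and 35.0 FPKM in the controls, at 22.2, 26.1 and 23.2 in ΔE2 and at 55.1, 46.3 and 56.8 in ΔSE12313-b. The log2 differences were -0.53 and 0.61 (limma, adjusted p = 0.00439 and 0.00184), and the direct difference was -1.14 (adjusted p = 0.000523), which was called. NRP2, the main receptor of SEMA3F, was at 23.5 and 23.4 FPKM in the controls and 12.7 to 21.7 in the clones, with differences of -0.60 and -0.61 that missed the threshold (adjusted p = 0.0703 and 0.0602).

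ROBO4, an endothelial member of the Robo family, was the more abundant of the 2 tested Robo genes. It was at 12.8 and 13.0 FPKM in the controls, at 18.7, 32.9 and 17.6 in ΔE2 and at 8.19, 7.69 and 11.8 in ΔSE12313-b, a direct difference of 1.28 (limma, adjusted p = 0.0092). ROBO3, outside the rule for names, was the 1 Robo gene called against control, at -1.32 in ΔSE12313-b. In the netrin group, in which the repulsive guidance molecules RGMA and RGMB were also counted, 4 genes were tested. Of these, 2 (RGMB and NTNG2) were called lower in each deletion, where 8.36% and 7.83% of all tested genes were. UNC5B, outside the rule for names, was lower by 0.91 and 0.97 and missed the threshold (limma, adjusted p = 0.0688 and 0.0504). RGMB, a membrane-anchored repulsive guidance molecule, fell by 1.71 and 1.77 on the log2 scale, from 21.6 and 22.4 FPKM to 6.01 to 7.18, and NTNG2 fell by 2.91 and 1.18. NTN4, a basement membrane netrin, was at 22.3 and 24.5 FPKM in the controls, at 39.0 to 44.1 in ΔE2 and at 14.9 to 18.7 in ΔSE12313-b, a direct difference of 1.29 (adjusted p = 0.000313).

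Of 26 signalling partners, 21 were tested, with 2 higher and 0 lower in ΔE2 and 3 higher and 2 lower in ΔSE12313-b. Calls made up 9.52% and 23.8% of those tested, against 19.6% and 22.6% of all tested genes. MICAL2, an actin-oxidising enzyme, rose by 1.16 in ΔE2. The other genes called, outside the rule for names, were DPYSL3, higher in both deletions at 1.00 and 1.01, DPYSL4, higher in ΔSE12313-b at 1.15, and MICAL1, lower there at -1.26. GPC1, a heparan sulphate proteoglycan that binds SLIT2, rose by 1.38 in ΔSE12313-b and was 1.41 lower in ΔE2 than in ΔSE12313-b. ARHGEF15 fell by 1.96 in ΔSE12313-b, from 1.72 and 2.29 FPKM to 0.196, 0.409 and 0.931, and was 2.29 higher in ΔE2 than in ΔSE12313-b (limma, adjusted p = 0.007). Over the whole list, 3 genes were called higher and 6 lower in ΔE2 than in ΔSE12313-b, where 1.60% and 2.63% of all tested genes were, or 17% of the tested list in either direction against 4.23%. With each library centred this was 5 and 5, where 287 and 244 of all 13790 tested genes were called.

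**Figure D3:**
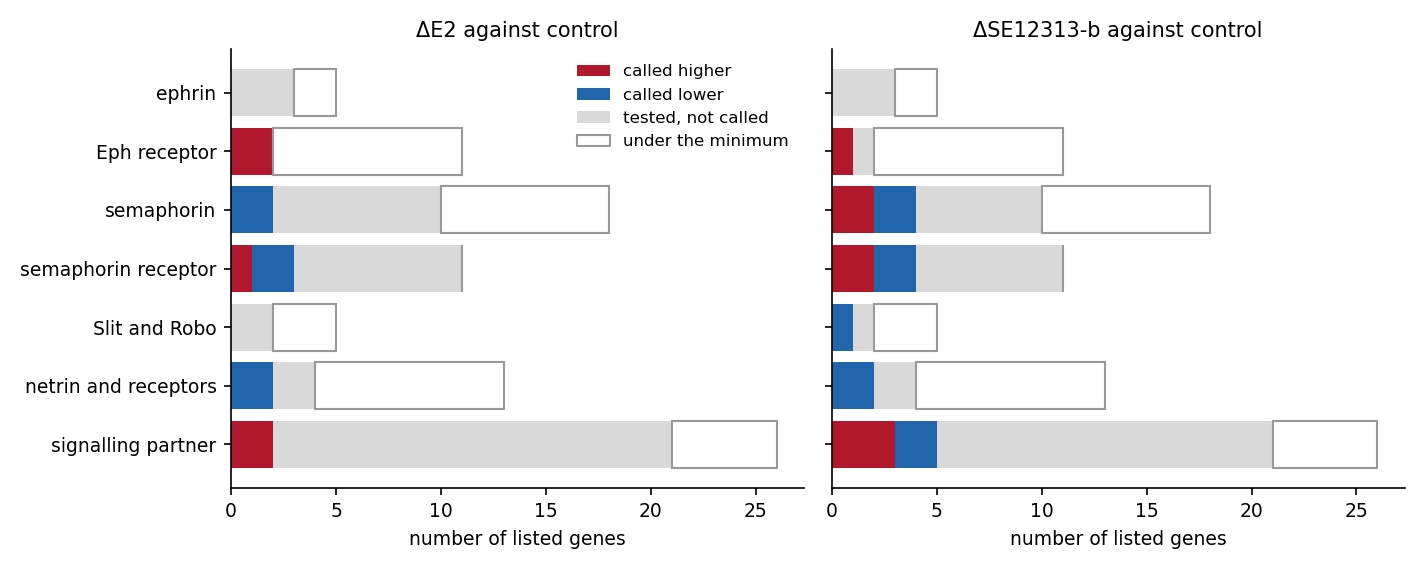
Number of the 89 other guidance genes in each class, split into those called higher or lower against control, those tested and not called, and those under the minimum, for ΔE2 (left) and ΔSE12313-b (right). EPHA4 and EPHA5, the 2 tested Eph receptors, were called higher in ΔE2, and EPHA5 also in ΔSE12313-b. Of all tested genes, 11.2% and 14.7% were called higher. EPHA5 reached the minimum through the clones alone, so its place above the controls is in part set by that minimum. No tested ephrin was called in either deletion.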

How the data were processed

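RNA from 8 EA.hy926 libraries was sequenced as 75-base single-end reads from a strand-marking kit. The authors trimmed reads with Trim Galore 0.4.4, mapped them with STAR 2.5.4b to hg19 and counted with featureCounts, per the submitters' processing notes. The deposited table holds FPKM per RefSeq transcript (65572 rows). The tool that made it, and whether it used strand, are not given in the sources used here. Its values were whole multiples of 1 read, to within 0.1 read, in 100% of values checked, which gave reads per gene and the library totals.

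One transcript was kept per gene, that with the highest mean FPKM. The groups were fitted together with limma 3.58.1 (R 4.3.3, trend) on log2(FPKM + 0.1), two-sided, with Benjamini-Hochberg adjustment over 13790 genes with at least 0.5 FPKM in at least 2 libraries. The fits were first tested on simulated data. A log2 change with this pseudocount understates the change of low genes. The p-values measure the spread between clones, and for the controls between libraries that may be technical. Intervals and read limits cover this spread and counting error only. The members and gene lists were chosen with earlier results of these data known. All 10 genes are named. Of the 89 others, the rule for names took the 4 called genes per direction with the largest change in each deletion. Between deletions it took 3 per direction, in both cases where groups did not overlap. NRP1, NRP2 and the genes marked as outside the rule were added. Other pseudocounts, filters, scalings, transcripts, models and thresholds, and leaving out each library, were tried. Promoter letters were read from GRCh37, and exon overlaps from GENCODE.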

Additional observations from a re-analysis of the deposited data

Results flagged for a closer look

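The results here differed between ΔE2 and ΔSE12313-b by the direct test of limma with Benjamini-Hochberg adjustment over all tested genes, with values on the log2(FPKM + 0.1) scale as ΔE2 minus ΔSE12313-b. Among the 10 genes these were EPHB2 at -0.64, SEMA3F at -0.88 and SEMA3C at 1.31. EPHB2 was higher in all 6 clones than in both controls, SEMA3F was lower in all 6, and SEMA3C was higher in the 3 ΔE2 clones and on both sides in ΔSE12313-b.

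Of the other guidance genes, those with a call in any comparison and a difference past the adjusted p are given here. Higher in ΔE2 were ARHGEF15 at 2.29, NTN4 at 1.29, ROBO4 at 1.28, PLXNC1 at 0.95, MICAL2 at 0.93, EPHA4 at 0.66, ROBO3 at 0.60 and MICAL1 at 0.52. Lower in ΔE2 were PLXNB3 at -1.83, NTNG2 at -1.73, GPC1 at -1.41, SEMA3B at -1.23, NRP1 at -1.14 and SEMA6B at -1.05. No group held the 4 samples that a check for a single outlying sample needs.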

How the results depend on the processing

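The SEMA3F fall was called in both deletions under every alternative run, and its log2 change without any 1 library lay between -2.46 and -2.12 in ΔE2 and between -1.41 and -1.35 in ΔSE12313-b. Without any 1 library EPHB4 lay between 1.07 and 1.36 in ΔE2 and between 1.17 and 1.47 in ΔSE12313-b, and EPHB2 in ΔSE12313-b between 1.12 and 1.16. Of the log2 changes of the 8 genes under all alternatives, 404 kept their direction and their side of the threshold, 9 gained a call, 21 lost one and 19 changed sign. Each sign change was in a comparison in which that gene had not been called as reported, and the cause of the changes below was not tested.

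With each library centred, the 10 genes had 1 called higher in ΔSE12313-b rather than 3, and the 89 other guidance genes had 2 rather than 5 higher in ΔE2, 3 rather than 8 in ΔSE12313-b and 5 rather than 3 between the deletions. The log2 difference of EPHA2 was then -0.083 in ΔSE12313-b and 0.085 between the deletions, and that of EPHB4 between the deletions 0.063. With quantile normalisation SLIT2 was the 1 of the 10 called higher in each deletion (1.09 and 1.34), in place of EPHB4 in ΔE2 (0.97), and 2 and 5 of the 89 in ΔE2 and ΔSE12313-b. Of all 13790 tested genes, 1309 and 1400 were called higher under that scaling. EPHA2 was then at -0.16, -0.28 and 0.12 in the 3 comparisons, the second with adjusted p = 0.0218 by limma, and EPHB4 at 0.068 between the deletions. With a pseudocount of 1, 2 and 3 of the 89 were called higher in ΔE2 and ΔSE12313-b, 3 rather than 6 lower between the deletions, and SLIT2 was at 0.49 in ΔSE12313-b and no longer 2-fold. Of all 13790 tested genes, 1065 and 1411 were then called higher in ΔE2 and ΔSE12313-b, and 140 lower between the deletions.

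SEMA3C between the deletions, the 1 call among the 10, gave 0 calls with limma when every gene above 0 FPKM in 2 libraries was tested, without the trend or with only the 2 groups compared (adjusted p 0.0647 to 0.0783), and 0 when an adjusted p under 0.01 was asked for. In ΔE2, SEMA3C joined EPHB4 to give 2 called higher with genes of mean FPKM of at least 1, with only the 2 groups compared, or with voom on the recovered reads. At 1.5-fold, 10 and 12 of the 53 tested among the 89 were called higher and lower in ΔE2. In ΔSE12313-b 13 were called higher, and between the deletions 10. Of all 13790 tested genes, 3109 and 1945 were called higher and lower in ΔE2 at 1.5-fold. In ΔSE12313-b 4124 were higher, and between the deletions 492. Of the 10 genes, 2 (EPHB2 and SEMA3F) were lower between the deletions, as were 1139 of all tested genes. The longest transcript and a pseudocount of 0.01 moved no count of calls by over 1.5 times.

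Leaving out each library in turn gave 1 to 2 of the 10 called higher in ΔE2, 2 to 3 in ΔSE12313-b, and 0 to 1 higher and 0 to 1 lower between the deletions. Of the 89 it gave 3 to 5 higher in ΔE2 and 4 to 8 in ΔSE12313-b. Differences that missed the threshold changed sign: EFNA1 ran from -0.29 to 0.022, EFNB1 from -0.62 to 0.0064 and SEMA3C from -0.41 to 0.30 in ΔSE12313-b, and between the deletions EFNA1 ran from -0.58 to 0.043, EFNB1 from -0.54 to 0.12, EPHA2 from -0.10 to 0.025 and EPHB4 from -0.24 to 0.077. Without 1 control, the lone control is assumed to vary like the clones.

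Libraries with the same number shared only that number: their deviations from the group means correlated between -0.08 and 0.11, so not all over 0.1. With the replicate number as a block, 0 of the 10 were called higher between the deletions by limma (SEMA3C at 1.31, adjusted p = 0.0874), and SLIT2 in ΔSE12313-b was at 0.94 (adjusted p = 0.0607). Over all genes the block gave 1474 higher and 1056 lower in ΔE2 and 1962 and 1000 in ΔSE12313-b. The depth limits SLIT2, with 33 and 41 reads in the controls, and EFNB2 and ROBO1, which were not detectable above 3 reads.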

Other observations

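SEMA3F and SEMA3B, the class 3 semaphorins with the strongest falls in ΔE2, lie 80.1 kb apart on the plus strand of chromosome 3 (SEMA3B at chr3:50306593-50314602, hg19). This was looked at after their values were seen. Of the 13 tested genes within 200 kb of SEMA3F, SEMA3B was the 1 called lower in each deletion, while 3 were called higher in ΔE2 and 4 in ΔSE12313-b. Over all tested genes, 8.36% and 7.83% were called lower in ΔE2 and ΔSE12313-b and 11.2% and 14.7% higher, so 1 of 13 lower is near the background. Between the pair, GNAI2, a G protein subunit 57.8 kb from SEMA3F, was at 65.2 and 60.4 FPKM in the controls and at 59.0 to 90.7 in the clones, with log2 differences of 0.08 and 0.31 (limma, adjusted p = 0.67 and 0.117). Beyond SEMA3B, HYAL2, which encodes a hyaluronidase, rose by 1.16 and 1.20, and RASSF1, a tumour suppressor gene, by 1.24 and 1.11. RBM5, on the other side, was lower by 0.76 and 0.64, under 2-fold.

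Around EPHB4, 11 genes within 200 kb were tested, with 4 called higher and 1 lower in ΔE2 and 3 higher and 0 lower in ΔSE12313-b by limma. Over all tested genes, 11.2% were called higher and 8.36% lower in ΔE2, and 14.7% and 7.83% in ΔSE12313-b. A relation of these calls to EPHB4 was not tested. POP7, TRIP6 and SRRT were called higher in both. The other ΔE2 call was MIR6875, which lies inside TRIP6, was at 0 in the controls and ΔSE12313-b, and reached the minimum through the ΔE2 clones alone, and its reads cannot be told apart from those of TRIP6. SRRT, an RNA-processing factor, was at 10.0 and 8.92 FPKM in the controls and at 26.8 to 33.2 in the clones. PCOLCE, an enhancer of procollagen processing, was the 1 called lower in ΔE2, at -1.47. Around EFNA1, which was not called itself, 28 genes were tested, with 3 called higher and 1 lower in ΔE2 and 5 higher and 3 lower in ΔSE12313-b. Of the 6 around EPHA2, 1 was called lower in ΔE2 and 0 in ΔSE12313-b. The 3 tested neighbours of EPHB2, the 1 of EFNB1 and the 1 of SLIT2 had no call in either deletion, and SEMA3C had 0 tested neighbours.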
